A study of Mus musculus with 15 samples.

Results

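The genes described here belong to 7 families of plasma membrane and lysosomal amino acid carriers, Slc1a, Slc3a, Slc6a, Slc7a, Slc36a, Slc38a and Slc43a, in mouse liver. They were chosen by their symbols, with earlier results of these data known. Of the 18193 genes measured, 61 were taken whose symbol begins with such a family name. Each is read by a probe set annotated to that symbol only. A further 2 symbols of these families, Slc7a4 and Slc38a4, were left out by the same rule. Where a gene had several probe sets, the gene is represented by whichever had the highest mean across all 15 arrays. By this rule 28 members had a mean of at least 5 on the log2 scale and 33 were dim, with a mean below 5. The name rule also took in 3 genes that are no carriers by their symbol: Slc7a6os, annotated as protein coding, and Slc36a1os and Slc6a19os, annotated as long non-coding RNA. That leaves 58 transporter genes, of which 27 were not dim.

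Values came from 15 Affymetrix Mouse Genome 430 2.0 arrays, each of a pool of whole livers from adult male mice, in 5 groups of 3 pools. Males of the IUGR F1 group (intrauterine growth restriction) had been exposed before birth to caloric restriction of 50%, and males of the ON F1 group had been overfed while suckling. The IUGR F2 and ON F2 groups held adult sons of such males, and the study asked whether expression in the fathers was found again in the sons. Control pools mixed livers of F1 and F2 males, which left no control group for either generation alone. The labels give no strain and no age beyond adult. They do not say whether the pools of a group came from separate litters, so p-values measure only the spread among these pools, and the spread between single mice is averaged out. The titles number the pools 1 to 15, and those numbers are used here.

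The liver takes up most amino acids that arrive from the gut in the portal vein and uses them for protein, glucose and urea. Many carriers work together: heavy chains of the Slc3a family bring Slc7a light chains to the membrane, sodium-coupled Slc38a carriers load cells with glutamine and other neutral amino acids, and exchangers trade these for others. When amino acids run short, the kinase GCN2 and the transcription factor ATF4 raise genes such as Asns and Slc38a2, while lysosomal carriers report amino acid supply to the growth kinase mTORC1.

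Levels are log2 RMA values (robust multi-array average), given with the SD over the 3 pools of a group. A difference is the log2 difference between group means with its standard error (SE) from limma, and a gene was called at a Benjamini-Hochberg adjusted p under 0.05 over all 18193 genes. Levels of different probe sets cannot be set against each other, so each member is compared only with itself across pools. Hepatocyte markers, 9 of 10 listed and measured, had a mean level between 12.15 and 12.33 in every pool. Arrays correlated at 0.9833 to 0.9954 across genes, and 0 pairs held identical values.

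Across all comparisons of groups, 1 member was called: Slc7a2, in ON F2 against ON F1. The map of the 28 members that were not dim shows each pool relative to the gene's control mean. In ON F1, 22 of the 28 had a group mean below control, beside 5471 of all 10363 genes that were not dim. In IUGR F1, compared with the same control arrays, 21 of the 28 did, beside 5872 of those genes. The lowest group mean lay in ON F1 for 11 of the 28, beside 19% of those genes. The highest group mean lay in ON F2 for 11 of the 28, beside 17.4% of those genes. These counts are descriptions, since genes within a library are not independent.

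**Figure D1:**
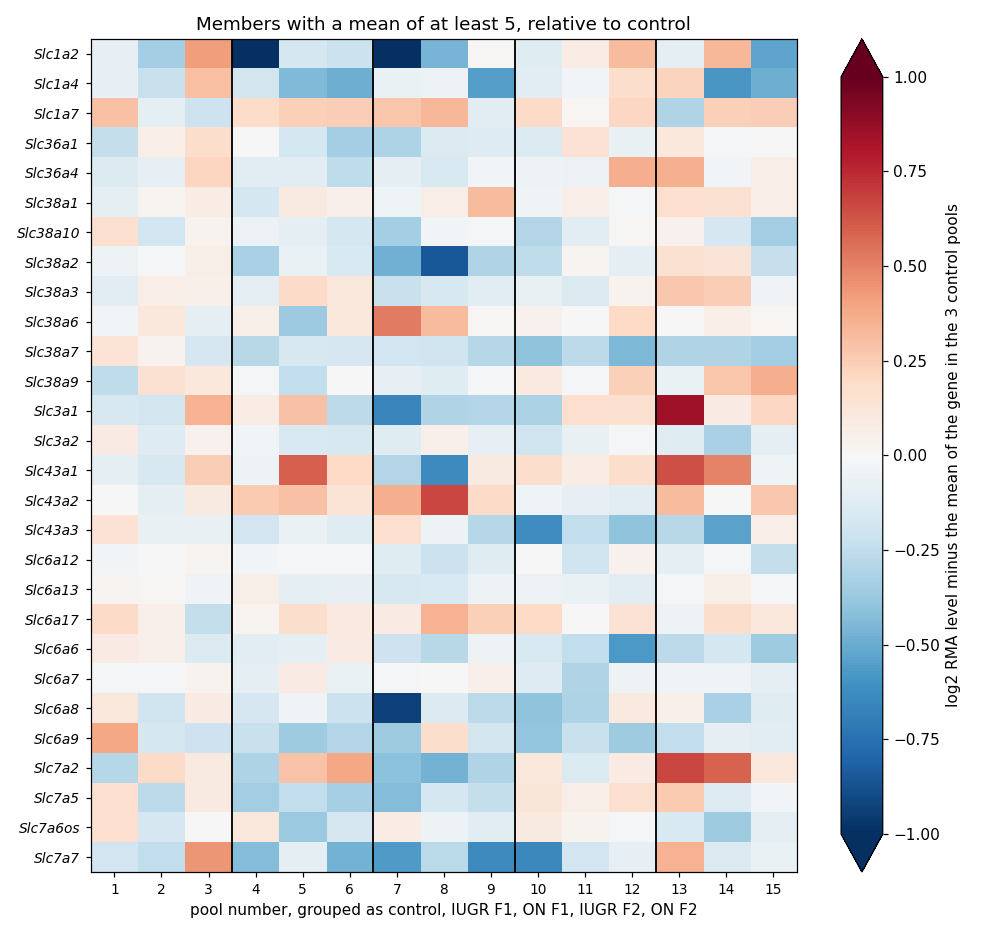
Each cell is the log2 RMA level of a member with a mean of at least 5 in a pool, minus that gene's mean in the 3 control pools; black lines divide the groups, and values past 1 take the end colour. Slc7a2 is highest in pools 13 and 14 and below its control mean in pools 7, 8 and 9; Slc38a2 is lowest in pool 8, Slc3a1 highest in pool 13 and Slc1a2 lowest in pool 7.

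Promoter sequences were in the RefSeq table (GRCm38.p6) for 45 of the 61 members and 20 of the 28 that were not dim; Slc7a2, Slc38a3, Slc7a5 and Slc6a6 had no entry. The 250 bases before the start site are shown for 3 members whose pools stood apart in the results: Slc38a2 (chr15:96699729-96699978, minus strand, 72% GC) and Slc3a1 (chr17:85028097-85028346, plus strand, 45.6% GC) from the ON comparison, and Slc38a7 (chr8:95853492-95853741, minus strand, 49.6% GC) from the comparisons with control. The deposited values name no genome build, and these coordinates are those of the RefSeq table. Capitals mark an E-box, CACGTG, the word bound by clock and MiT/TFE basic helix-loop-helix factors.
Slc38a2: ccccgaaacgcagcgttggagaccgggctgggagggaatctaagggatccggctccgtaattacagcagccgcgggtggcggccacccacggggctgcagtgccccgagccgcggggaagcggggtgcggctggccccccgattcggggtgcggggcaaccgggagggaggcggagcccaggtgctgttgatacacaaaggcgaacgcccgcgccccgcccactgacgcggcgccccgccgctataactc
Slc3a1: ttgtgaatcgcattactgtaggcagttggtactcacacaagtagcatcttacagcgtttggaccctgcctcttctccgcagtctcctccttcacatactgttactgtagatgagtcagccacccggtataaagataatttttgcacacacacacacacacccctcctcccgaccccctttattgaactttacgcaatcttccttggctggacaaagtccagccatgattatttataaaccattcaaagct
Slc38a7: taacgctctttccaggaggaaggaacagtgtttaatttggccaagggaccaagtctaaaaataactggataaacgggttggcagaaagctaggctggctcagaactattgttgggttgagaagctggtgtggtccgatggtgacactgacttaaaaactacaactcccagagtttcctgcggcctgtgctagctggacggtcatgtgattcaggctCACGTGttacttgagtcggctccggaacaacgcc
In such windows 3 words were sought on both strands. The E-box, which is its own reverse complement, stood in 9 of the 45 members (Slc1a6, Slc1a7, Slc36a1, Slc38a5, Slc38a7, Slc43a1, Slc6a16, Slc6a3 and Slc7a14), beside 6.86% of 27025 genes, and in Slc38a7 it lay 34 bases before the start. The core of the amino acid response element read by ATF4, TGATGNAA, stood in 3 of 45 members (Slc6a21, Slc7a11 and Slc7a7), beside 3.91% of genes. The D-box read by Dbp, TTANGTAA, stood in 0 of 45 members, beside 2.44% of genes. None of the 3 words stood in the windows of Slc38a2 and Slc3a1. A match says only that the letters are there, and no match only that they are not in this window.

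The ON lineage was compared first between generations, ON F2 against ON F1. Here 261 of 18193 genes were called (1.43%), and 1 of the 61 members. The genes called numbered 19 without pool 7, 152 without pool 8, 34 without pool 13, 26 without pool 14 and 146 without pool 10. Slc7a2 encodes the cationic amino acid transporter CAT2, which carries arginine, lysine and ornithine into hepatocytes. It was read at 10.98, 10.91 and 10.42 in ON F2 pools 13 to 15 and at 9.91, 9.85 and 10.02 in ON F1 pools 7 to 9. Every ON F2 pool was above every ON F1 pool. Slc7a2 rose by 0.85 ± 0.18 (SE; 95% interval 0.46 to 1.23; limma adjusted p = 0.0365; n = 3 and 3), a 1.80-fold higher level. Control pools stood at 10.03, 10.51 and 10.41, so that ON F1 pools lay below all 3 and ON F2 pool 15 lay within the control range. IUGR F1 pools spread from 10.01 to 10.70 and IUGR F2 pools from 10.18 to 10.43. In the order of group means, ON F1 (9.92 ± 0.09), control (10.32 ± 0.25), IUGR F2 (10.34 ± 0.14), IUGR F1 (10.44 ± 0.37) and ON F2 (10.77 ± 0.31), control and both IUGR groups lay within their own spread of each other.

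The call on Slc7a2 was near the threshold. It was lost without pool 7, 8, 10, 13 or 14 (limma adjusted p between 0.0528 and 0.152; differences between 0.74 and 0.85), and the closing section gives the settings that ended it. The other Slc7a2 probe sets that were not dim differed by 0.62 and 0.21 in the same direction.

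Slc38a2, the sodium-coupled neutral amino acid carrier SNAT2 whose transcript is known to respond to amino acid shortage, did not pass at the threshold. It was read at 9.47, 9.44 and 9.08 in ON F2 pools and at 8.83, 8.46 and 9.01 in ON F1 pools. The groups did not overlap, although pools 15 and 9 lay close together. The difference was 0.56 ± 0.14 (limma adjusted p = 0.0556). It was called without pool 9 (0.68, limma adjusted p = 0.0319) or without pool 15 (0.68, limma adjusted p = 0.0363). Over all fits that left out 1 pool, the difference went down to 0.405 and the limma adjusted p up to 0.196. Its other probe set that was not dim differed by 0.48, and the mean of its probe sets by 0.31.

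Slc3a1, the heavy chain rBAT that carries the cystine and dibasic amino acid exchanger to the membrane in kidney and gut, was read at 10.65, 9.89 and 10.01 in ON F2 pools. ON F1 pools stood at 9.15, 9.50 and 9.51. The groups did not overlap, and pool 13 stood highest of all 15 pools. The difference was 0.79 ± 0.21 (limma adjusted p = 0.0694), and 0.56 without pool 13 (limma adjusted p = 0.173). Its light chain Slc7a9 was dim, with a mean of 3.87.

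Slc38a3, the glutamine carrier SNAT3 of hepatocytes, was read at 12.65, 12.63 and 12.35 in ON F2 and at 12.16, 12.22 and 12.27 in ON F1 pools. The groups did not overlap, and the difference was 0.33 ± 0.10 (limma adjusted p = 0.0984). Slc7a7, the light chain y+LAT1 that exports cationic amino acids, was read at 6.17, 5.68 and 5.75 in ON F2 and at 5.25, 5.56 and 5.19 in ON F1 pools. Its difference was 0.54 ± 0.20 (limma adjusted p = 0.159), while its other probe set that was not dim differed by 0.05. Slc7a5, the large neutral amino acid exchanger LAT1, differed by 0.32 ± 0.12 (limma adjusted p = 0.162), and by 0.20 without pool 13. Slc43a1, the facilitated carrier LAT3, named after its values were seen, differed by 0.64 ± 0.20 (limma adjusted p = 0.110), and its groups overlapped: pool 15 at 5.90 lay below pool 9 at 6.04.

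**Figure D2:**
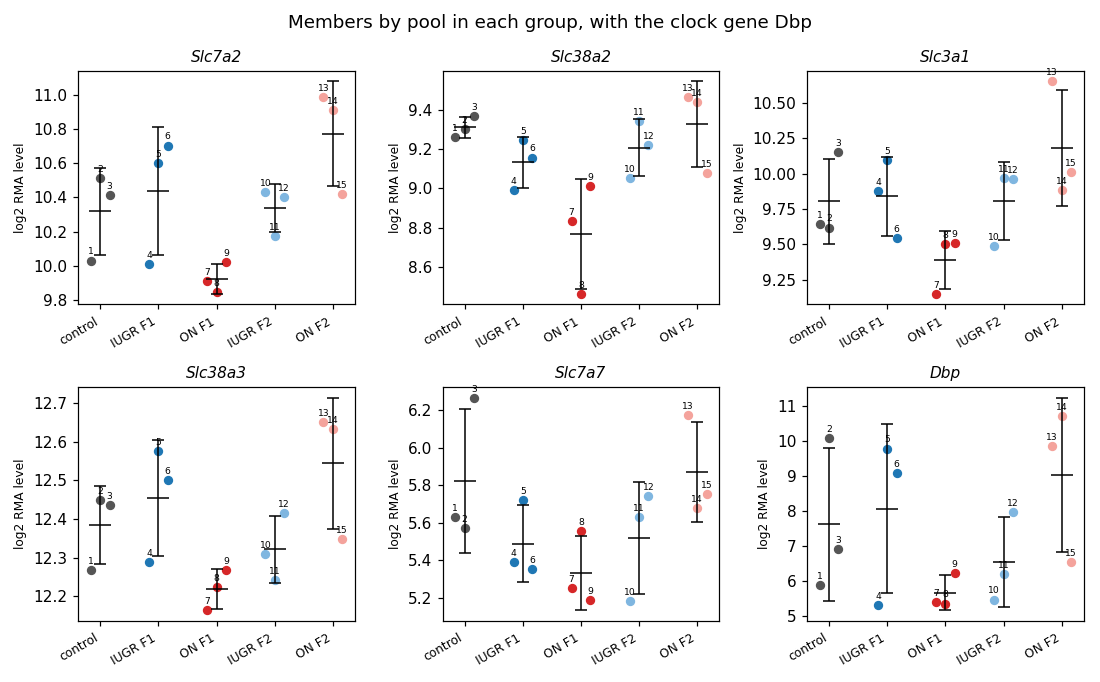
Each panel gives the log2 RMA level in every pool (numbered points) with the mean and SD of the 3 pools (black) for Slc7a2, Slc38a2, Slc3a1, Slc38a3, Slc7a7 and the clock gene Dbp. ON F1 pools of Slc7a2 lie between 9.85 and 10.02 and ON F2 pools between 10.42 and 10.98; the Dbp panel shows pools 2, 5, 6, 13 and 14 above 9.

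At an unadjusted p under 0.05, 12 of the 61 members differed between ON F2 and ON F1, beside 19.3% of all genes. Of the 61, 10 were higher, beside 6.6% of all genes, and 2 were lower, beside 12.7%. Among the 28 members that were not dim, 7 were higher and 0 lower, beside 7.52% and 16.9% of all genes that were not dim. Centring each array on its median gave 13 higher and 1 lower of the 61, while all genes went from 1201 higher and 2318 lower to 1775 and 1641. With Dbp as a covariate 6 members were higher, 4 of them not dim, and 2 lower. Pools of 16 of the 61 members did not overlap, beside 21.4% of all genes. Of the 61, 12 were higher in this way, beside 7.41% of all genes, and 4 were lower, beside 14%. The median difference over the 28 was 0.03, and over all genes that were not dim it was -0.05. By family, the 4 Slc7a members had a median of 0.43, the 7 Slc38a members 0.01, the 7 Slc6a members -0.03 and the 3 Slc43a members -0.19.

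**Figure D3:**
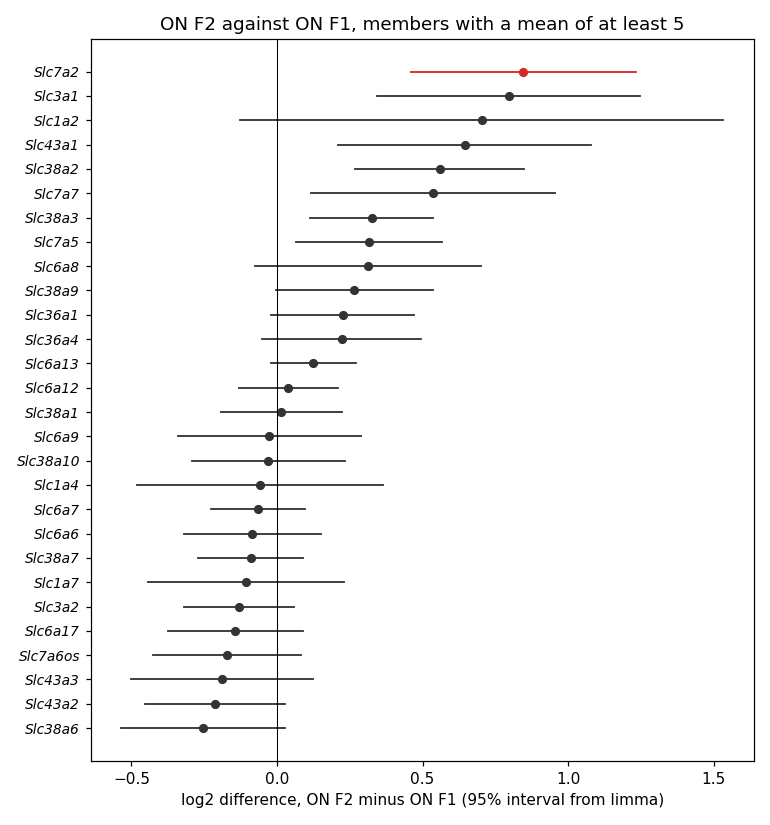
Points are log2 differences, ON F2 minus ON F1, with the 95% interval from limma, for the 28 members with a mean of at least 5; red marks the called member. Slc7a2 at 0.85 is red, and Slc3a1 at 0.79, Slc38a2 at 0.56 and Slc38a3 at 0.33 have intervals above 0.

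Other measures moved with these pools. The clock gene Dbp, whose liver transcript cycles over the day, was read at 9.84, 10.71 and 6.54 in ON F2 pools and at 5.40, 5.34 and 6.23 in ON F1 pools. Over all groups, the 5 pools with Dbp above 9 had Slc7a2 between 10.51 and 10.98 and the other 10 pools between 9.85 and 10.43. The same 5 pools had Slc38a3 between 12.45 and 12.65, and the other 10 between 12.16 and 12.44. Slc38a2 overlapped between these pools (9.16 to 9.47 and 8.46 to 9.37), as did Slc3a1 (9.54 to 10.65 and 9.15 to 10.15). All other members that were not dim also overlapped, except Slc7a6os. The share of all genes that divide this way was not counted. With Dbp as a covariate the difference was 0.45 ± 0.13 for Slc7a2 (limma adjusted p = 0.277), 0.37 for Slc38a2 (limma adjusted p = 0.408) and 0.13 for Slc38a3 (limma adjusted p = 0.631). Slc3a1 stood at 0.75 in that fit (limma adjusted p = 0.371). The 14 clock genes measured of 15 listed shifted against control by a median of -0.25 to 0.29 in ON F2 and -0.36 to -0.15 in ON F1 pools. Hour of collection is not in the labels, and its part in the result was not tested.

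Markers of the exocrine pancreas, an organ that also uses amino acid carriers heavily, were high in pool 13. The mean level of the 14 measured of 21 listed genes was 5.07 to 8.96 in ON F2 pools, 4.96 to 5.17 in ON F1, 4.90 to 5.01 in control, 5.03 to 5.14 in IUGR F1 and 5.01 to 5.11 in IUGR F2 pools. Without pool 13 the difference was 0.74 for Slc7a2 (limma adjusted p = 0.0975), 0.49 for Slc38a2 (limma adjusted p = 0.132) and 0.27 for Slc38a3 (limma adjusted p = 0.224). Macrophage markers, 12 of 12 measured, had a mean level of 6.91 to 7.42 in ON F2, 6.70 to 6.94 in ON F1, 6.72 to 7.22 in control, 6.48 to 6.55 in IUGR F1 and 6.45 to 7.04 in IUGR F2 pools. Interferon response genes, 11 of 13 measured, stood at 5.63 to 7.18 in ON F1 and 5.38 to 5.49 in ON F2 pools, with pool 8 highest. Bile duct markers, 8 of 10 measured and 2 of them not dim, had a mean level of 5.00 to 5.08 in ON F1, above all other pools: 4.70 to 4.77 in control, 4.80 to 4.83 in IUGR F1, 4.73 to 4.78 in IUGR F2 and 4.70 to 4.83 in ON F2. Against control, all 8 were higher in ON F1 (median 0.24), 4 of them at an unadjusted p under 0.05 and 0 called. In ON F2 against ON F1, 6 of the 8 were lower (median -0.15), and Sox9, which is on this list, was called. The part of these cell types in the differences of the members was not tested. In whole liver, fewer cells of a type and less RNA per cell cannot be told apart.

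Genes of the same pathway were read beside the members, from lists set by function. Of 22 measured genes of amino acid sensing and stress, 2 were called in ON F2 against ON F1, both higher. Asns, the asparagine synthetase that ATF4 raises, was read at 7.70, 7.48 and 6.98 in ON F2 and at 5.18, 5.77 and 5.38 in ON F1 pools, and rose by 1.94 ± 0.34 (limma adjusted p = 0.0211). Eif4ebp1, a translation inhibitor downstream of mTORC1, rose by 0.36 ± 0.08 (limma adjusted p = 0.0475). Asns lost its call without pool 7, 13 or 14 (limma adjusted p between 0.0593 and 0.0824), and Eif4ebp1 in 12 of the 15 fits that left out a pool (highest limma adjusted p 0.139). With Dbp as a covariate neither was called (limma adjusted p = 0.197 for Asns and 0.306 for Eif4ebp1). The list as a whole did not lean that way: 6 of the 22 were higher and 16 lower, with a median of -0.07. Of 21 measured other carriers of amino acids and peptides, 0 were called, with 4 higher and 1 lower at an unadjusted p under 0.05. The smallest p among them belonged to Slc22a15 at -0.34 ± 0.09 (limma adjusted p = 0.0687) and the creatine carrier Slc16a12 at 0.67 ± 0.20 (limma adjusted p = 0.0850). Of 33 measured breakdown enzymes and 7 measured membrane partners, 0 were called, and at an unadjusted p under 0.05 the enzymes numbered 0 and the partners 1, the kinase Sgk1 at 0.46 ± 0.22 (limma adjusted p = 0.254). Of 12 measured perivenous hepatocyte genes, 6 were higher and 6 lower, with a median of 0.09. At an unadjusted p under 0.05, 5 of these were higher and 0 lower. Of 10 measured periportal hepatocyte genes, 7 were higher and 3 lower, with a median of 0.26, and 5 were higher and 1 lower at an unadjusted p under 0.05. They shifted against control by a median of -0.29 to -0.13 in ON F1, -0.05 to 0.10 in ON F2, -0.04 to 0.02 in control, -0.0047 to 0.06 in IUGR F1 and -0.01 to 0.15 in IUGR F2 pools, so that ON F1 pools were lowest, and their part in the result was not tested. Pck1 was called higher (1.64, limma adjusted p = 0.0470) and Sox9 lower (-0.83, limma adjusted p = 0.0315); leaving out a pool ended the call of Pck1 in 12 of 15 fits, up to a limma adjusted p of 0.166, and that of Sox9 without pool 7, 9, 13 or 14, up to 0.125.

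Against control, ON F1 had 4 called genes (0.022%) and 0 called members. At an unadjusted p under 0.05, 13 of 61 members differed, beside 14% of all genes; 8 were lower, beside 5.03%, and 5 higher, beside 8.97%. With each array centred on its median, 1 member was higher and 14 were lower, and over all genes the split turned from 1632 higher and 915 lower to 818 and 1869. The members at that level numbered 8 without control pool 1 and 5 without control pool 3. The 28 members that were not dim had a median of -0.14, and all genes that were not dim had -0.01. Pools did not overlap for 11 of the 61, beside 16.4% of all genes. Of the 61, 8 were lower in this way, beside 6.23% of all genes, and 3 were higher, beside 10.2%. Among members that were not dim, 6 were lower at an unadjusted p under 0.05, beside 7.21% of all genes that were not dim. The number of such members was 2 without control pool 3, 4 without control pool 1 and 2 without ON F1 pool 7. The median was below 0 in all 7 families, among them -0.34 over 4 Slc7a, -0.13 over 7 Slc38a and -0.12 over 7 Slc6a members.

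Slc38a2 had the smallest p of the members here. Control pools stood at 9.26, 9.30 and 9.37, and the ON F1 pools at 8.83, 8.46 and 9.01 were all lower. The difference was -0.54 ± 0.14 (limma adjusted p = 0.143), so it did not pass. With 1 pool left out it lay between -0.66 and -0.39 (limma adjusted p between 0.0802 and 0.345). Slc43a2, the neutral amino acid carrier LAT4, went the other way: it was read at 6.36, 6.67 and 6.19 in ON F1 and at 6.00, 5.90 and 6.09 in control pools. Its difference was 0.41 ± 0.11 (limma adjusted p = 0.166). With the mean of probe sets Slc38a2 differed by -0.30 and Slc43a2 by 0.21. Slc7a7 differed by -0.49 ± 0.20 (limma adjusted p = 0.292), or -0.27 without control pool 3, and Slc7a2 by -0.39 ± 0.18 (limma adjusted p = 0.351). The other Slc7a7 probe set that was not dim differed by -0.06. Asns, which also stood low in ON F1 pools, differed from control by -1.05 ± 0.34 (limma adjusted p = 0.204).

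IUGR F1 against control had 0 called genes (0%), with 1534 genes (8.43%) and 4 of 61 members at an unadjusted limma p under 0.05. Of the 28 members that were not dim, 21 were lower, beside 5872 of 10363 genes that were not dim. The median was -0.10, beside -0.02 for those genes. Pools of 6 of 61 members did not overlap, beside 14.5% of all genes. Slc43a2 was higher in each IUGR F1 pool (6.26, 6.30 and 6.14) than in each control pool, by 0.23 ± 0.11 (limma adjusted p = 0.613). Slc6a9, the glycine carrier GLYT1, stood lower by 0.29, at 7.69 ± 0.07 against 7.98 ± 0.33 (limma adjusted p = 0.620). Without control pool 1 the difference was -0.10 (limma adjusted p = 0.865). Slc38a2 stood below every control pool in each IUGR F1 pool, as it did in ON F1. It differed by -0.18 in IUGR F1, and by -0.11 at its other probe set that was not dim, and was not called. Slc43a2 was thus above every control pool in all 6 pools of directly exposed males, IUGR F1 and ON F1, which shared the control arrays. Every IUGR F2 pool (5.89 to 5.95) lay below these 6 pools too. Shares of all genes with the patterns of Slc38a2 and Slc43a2 over both F1 groups were not counted. Of genes that were not dim, 5.72% in IUGR F1 and 8.17% in ON F1 had every pool above control. Those with every pool below control were 7.95% and 8.47%. ON F2 pools at 6.31, 6.00 and 6.27 overlapped with the F1 pools. The difference in IUGR F1 was 0.12 with the mean of the Slc43a2 probe sets.

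The F2 groups were compared with the same control arrays. IUGR F2 had 0 called genes (0%), with 7.05% of all genes and 5 of 61 members at an unadjusted limma p under 0.05. ON F2 also had 0 called genes (0%), with 15.1% of all genes and 7 of 61 members at that level. The 5 in IUGR F2 numbered 2 without pool 10 and 3 without pool 1, 6, 9 or 15, and the 7 in ON F2 numbered 4 without control pool 1. Pools did not overlap for 10 of 61 members in IUGR F2, beside 13.4% of all genes, and for 9 of 61 in ON F2, beside 21%. Median differences over the 28 were -0.04 in IUGR F2 and 0.02 in ON F2.

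Slc38a7, the lysosomal glutamine exporter SNAT7, had the smallest p of the members in both. Control pools stood at 7.12, 7.02 and 6.82, IUGR F2 pools at 6.59, 6.73 and 6.54, and ON F2 pools at 6.69, 6.69 and 6.64. All 6 F2 pools lay below all 3 control pools, as they did for Slc6a6 and Slc6a7. The share of all genes with this pattern was not counted. Of all genes that were not dim, 10.5% had every IUGR F2 pool below all control pools. For ON F2 pools the share was 18.5%. The difference was -0.37 ± 0.08 in IUGR F2 (limma adjusted p = 0.383) and -0.32 ± 0.08 in ON F2 (limma adjusted p = 0.134). The F1 pools, at 6.71 to 6.83 in IUGR F1 and 6.70 to 6.80 in ON F1, overlapped with the highest IUGR F2 pool at 6.73, and IUGR F1 also with the lowest control pool. ON F1 differed from control by -0.23 (limma adjusted p = 0.265). The low F2 readings are set against control pools that differ among themselves by as much as 0.30, between 6.82 and 7.12.

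Slc6a6, the taurine carrier TauT, had all 6 F2 pools (9.04 to 9.46) below all 3 control pools (9.48 to 9.70). Its difference was -0.32 ± 0.11 in IUGR F2 (limma adjusted p = 0.656) and -0.26 ± 0.11 in ON F2 (limma adjusted p = 0.277). Without pool 12 the difference in IUGR F2 was -0.20, and with the mean of probe sets the differences were -0.07 and -0.05. A second Slc6a6 probe set differed by -0.24 and -0.31, while another, at a mean of 5.41, differed by 0.16 in each. Slc6a7, the proline carrier known from brain, was also below control in all 6 F2 pools, but by 0.06 in ON F2 (5.18 ± 0.03 against 5.24 ± 0.03, limma adjusted p = 0.771). Slc43a3, a relative that carries purine bases, was lower in IUGR F2, at 5.61, 5.99 and 5.83 against 6.38, 6.16 and 6.17 in control pools (difference -0.42 ± 0.15, limma adjusted p = 0.656).

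**Figure D4:**
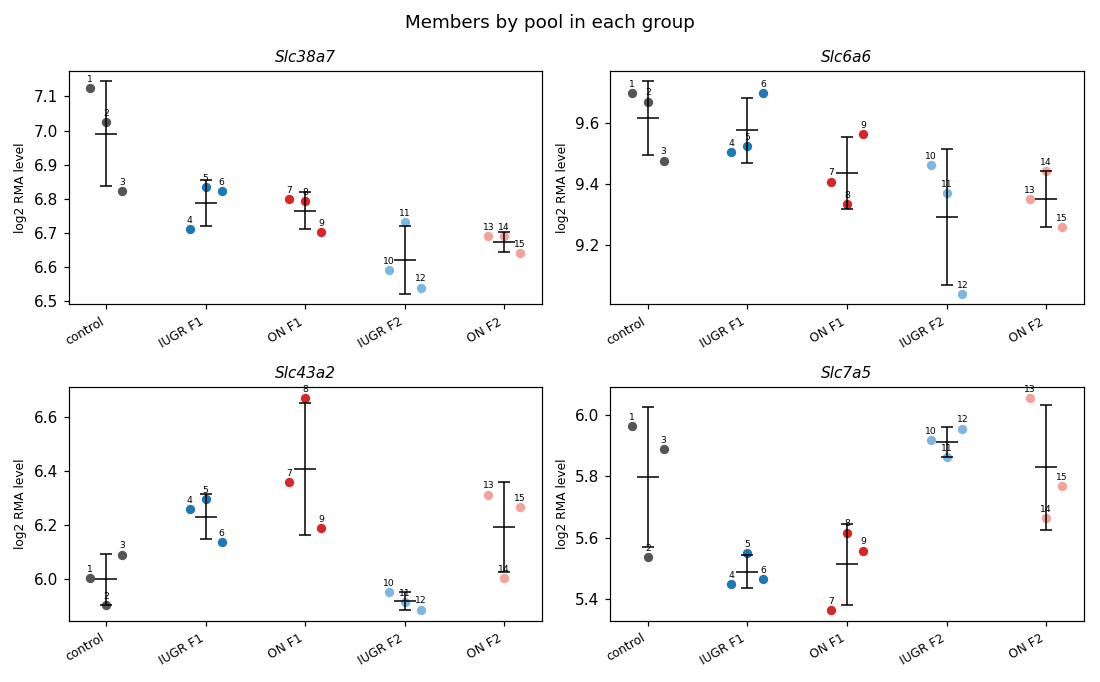
Each panel gives the log2 RMA level in every pool (numbered points) with the mean and SD of the 3 pools (black) for Slc38a7, Slc6a6, Slc43a2 and Slc7a5. F2 pools of Slc38a7 lie between 6.54 and 6.73, below the control pools at 6.82 to 7.12; F1 pools of Slc43a2 lie between 6.14 and 6.67, above the control pools at 5.90 to 6.09.

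Between generations of the IUGR lineage, IUGR F2 against IUGR F1, 2 of 18193 genes were called (0.011%) and 0 members. At an unadjusted p under 0.05, 4 of 61 members differed, beside 11.4% of all genes. They numbered 8 without pool 11, and 7 with the actin covariate or with only the arrays compared. Here pools of 11 did not overlap, beside 19.2%. Slc7a5 was read at 5.92, 5.86 and 5.96 in IUGR F2 and at 5.45, 5.55 and 5.47 in IUGR F1 pools. Its difference was 0.42 ± 0.12 (limma adjusted p = 0.251), and control pools spanned both groups, from 5.54 to 5.97. Slc1a4, the neutral amino acid exchanger ASCT1, differed by 0.38 ± 0.20 (limma adjusted p = 0.496), while its other probe sets that were not dim gave -0.11 and 0.10, so the probe sets disagree. Slc36a4, the proton-assisted carrier PAT4, differed by 0.24 ± 0.13 (95% interval -0.03 to 0.52), and by 0.10 without pool 12. Slc43a2 differed by -0.31 ± 0.11 (limma adjusted p = 0.340), Slc6a6 by -0.28 ± 0.11 (limma adjusted p = 0.371) and Slc43a3 by -0.30 ± 0.15 (limma adjusted p = 0.468). Without pool 12 Slc6a6 differed by -0.16, and without pool 10 Slc43a3 differed by -0.20.

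The 2 lineages share no arrays in these comparisons between generations, and the lineage by generation interaction tests whether they differed. It called 2 genes (0.011%) and 0 members, with 7.71% of all genes and 7 of 61 members at an unadjusted p under 0.05. Of the 61 members, 6 had an F2 minus F1 difference more positive in the ON lineage at that level, beside 3.18% of all genes (578). The difference was less positive for 1 of the 61, beside 4.53% (825). Members with a more positive difference at that level numbered 1 with Dbp as a covariate, with 0 in the other direction. They numbered 3 with the mean of probe sets and 3 without IUGR F1 pool 5. Slc7a2 had a difference of differences of 0.95 ± 0.26 (limma adjusted p = 0.472), made of 0.85 in the ON and -0.10 in the IUGR lineage. Its other probe sets that were not dim gave 0.23 each, and in the IUGR lineage they differed by 0.38 and -0.01. The same quantity was 0.46 ± 0.14 for Slc38a3 (limma adjusted p = 0.491), 0.83 ± 0.30 for Slc3a1 (limma adjusted p = 0.557) and 0.48 ± 0.19 for Slc38a2 (limma adjusted p = 0.573). At the other probe set that was not dim it was 0.45 for Slc38a3 and 0.14 for Slc38a2. In the IUGR lineage Slc38a2 differed by 0.07 at the probe set used and by 0.34 at the other. None passed, so a difference between the lineages was not shown for any member.

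**Figure D5:**
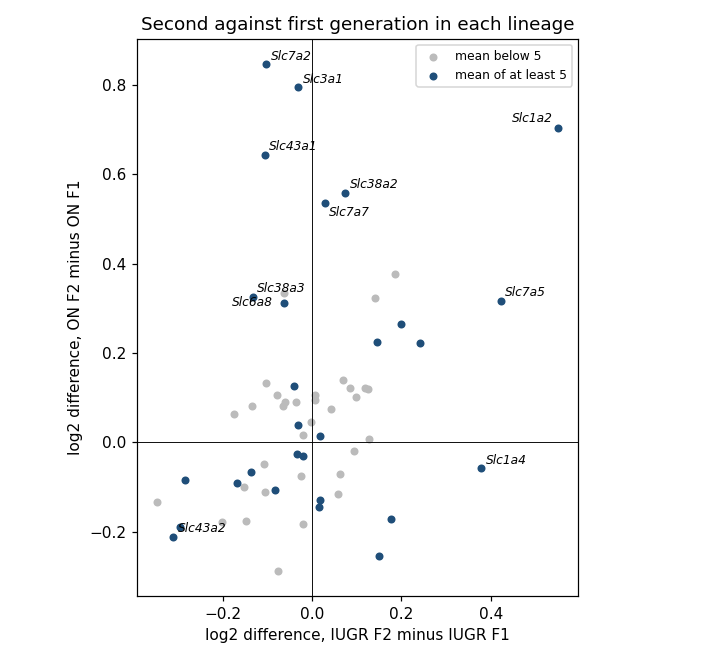
Each point is a member: the horizontal axis gives the log2 difference IUGR F2 minus IUGR F1 and the vertical axis ON F2 minus ON F1, with dim members in grey. Slc7a2 lies at -0.10 and 0.85, and Slc7a5 at 0.42 and 0.32.

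Within a generation, ON F1 against IUGR F1 called 2 genes (0.011%) and 0 members, with 9 of 61 members at an unadjusted p under 0.05, beside 6.35% of all genes. They numbered 3 without IUGR F1 pool 5, none of them among the 28 that were not dim, and 5 without pool 4, 7 or 8 or with array weights. Pools of 7 members did not overlap, beside 9.94%. Slc38a3 was lower in ON F1 by 0.24, at 12.22 ± 0.05 against 12.45 ± 0.15 (limma adjusted p = 0.741; -0.10 with Dbp as a covariate), and Slc3a1 by 0.45, at 9.39 ± 0.21 against 9.84 ± 0.28 (limma adjusted p = 0.784). Slc6a12, the betaine and GABA carrier BGT1, had 8.30 ± 0.06 in ON F1 and 8.43 ± 0.01 in IUGR F1 (limma adjusted p = 0.875). ON F2 against IUGR F2 called 1 gene (0.0055%) and 0 members. At an unadjusted p under 0.05, 5 of 61 members differed, beside 10.1% of all genes. Of the 61, 5 were higher, beside 4.77% of all genes, and 0 were lower, beside 5.37%. With each array centred on its median, 4 were higher and 2 lower, and all genes went from 867 higher and 977 lower to 454 and 1647. The 5 fell to 2 without IUGR F2 pool 11, with 0 of these among the 28 that were not dim, and to 3 without pool 10 or 15, with the mean of probe sets or with Dbp. Pools of 8 members did not overlap, beside 17.1%. Slc43a2 differed by 0.28 ± 0.11 (limma adjusted p = 0.440), Slc6a13, a GABA and taurine carrier, by 0.08 ± 0.07 (limma adjusted p = 0.735) and Slc7a6os by -0.23 ± 0.12 (limma adjusted p = 0.543; -0.15 without pool 14, -0.11 with the mean of probe sets and -0.05 with Dbp). The F test over all 5 groups called 34 genes (0.187%) and 0 members, with 11 of 61 members at an unadjusted p under 0.05, beside 18% of all genes.

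Several members varied little between groups. Group means of Slc6a13 lay between 10.45 and 10.58, those of Slc6a12 between 8.30 and 8.45, and those of Slc38a10 between 9.52 and 9.68. The heavy chain Slc3a2, known as CD98hc, which brings LAT1 and other light chains to the membrane, had group means from 8.42 ± 0.12 in ON F2 to 8.60 ± 0.11 in control. Slc36a1, the lysosomal carrier PAT1, had group means from 7.57 to 7.79. Slc38a6, a neutral amino acid carrier, ranged from 7.31 ± 0.26 in IUGR F1 to 7.66 ± 0.26 in ON F1, with pool 7 highest at 7.90.

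Slc1a2, the glutamate carrier GLT-1 that in liver marks hepatocytes around the central vein, varied most. It was read at 7.59, 7.33 and 8.09 in control, 6.68, 7.49 and 7.45 in IUGR F1, 5.73, 7.20 and 7.68 in ON F1, 7.55, 7.74 and 7.98 in IUGR F2 and 7.57, 8.00 and 7.14 in ON F2 pools. Pool 7 was low. Every IUGR F2 pool lay above every IUGR F1 pool, and all other pairs of groups overlapped. IUGR F2 differed from IUGR F1 by 0.55, and by 0.59 at the other probe set that was not dim, and Slc1a2 was not called. The 12 perivenous hepatocyte genes, all measured, shifted against control by a median of -0.32 in pool 7, the lowest of the ON F1 range of -0.32 to -0.02; the other groups lay between -0.06 and 0.12. In ON F1 against control the difference of Slc1a2 was -0.80 at the probe set used and -0.06 at the other that was not dim, so the probe sets disagree.

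Heavy and light chains were set against each other across the 15 pools in 8 pairs, of which 6 had a dim light chain. Slc3a2 and Slc7a5 had Pearson r = 0.247 (permutation p = 0.378, adjusted 0.757) and Spearman rho = 0.311 (permutation p = 0.259, adjusted 0.928). Within groups, as deviations from group means, r was 0.657 (permutation p = 0.00742, adjusted 0.0594), and without the 2 pools farthest from the median of Slc3a2 the pooled r was 0.134. The permutation of deviations moved them across groups although the group means had been removed, so its p may be too small. Slc3a2 and Slc7a7 had r = 0.246 (permutation p = 0.376, adjusted 0.757), rho = 0.264 (permutation p = 0.340, adjusted 0.928) and 0.409 without the 2 farthest pools. None of the 8 pairs passed after adjustment.

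The 33 dim members had means from 3.00 (Slc6a20a) to 4.97 (Slc7a1), and their levels spanned at most 0.88 over the 15 pools. They include carriers known mainly from brain, kidney or gut, such as the GABA carrier Slc6a11, the kidney carriers Slc6a18, Slc6a19 and Slc7a9, and the cystine-glutamate exchanger Slc7a11. None was called in any comparison. The smallest p in ON F2 against ON F1 among them belonged to Slc1a5, the glutamine exchanger ASCT2, at 0.38 ± 0.10 (limma adjusted p = 0.0725), named after its values were seen. RMA compresses values near background, so differences of dim genes are understated.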

How the data were processed

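The authors deposited log2 expression values per probe set; the submitters' processing notes name RMA, with no version. That they are log2 was judged from their range. RMA normalises arrays to each other by quantiles, which removes shifts shared by most genes. Of 45101 probe sets, 64 controls were left out, and the 34945 annotated with 1 symbol gave 18193 genes, each read at its probe set with the highest mean. Group comparisons used limma 3.58.1 (R 4.3.3), in 1 model of 5 group means over all 15 arrays, with empirical Bayes moderation without a trend (prior degrees of freedom 4.69, residual 10), two-sided, with Benjamini-Hochberg adjustment over all genes. The median SE of a difference was 0.104, and the number of arrays limits the precision. No filter on dim genes was applied, and all comparisons with control share its 3 arrays. The script was tested on simulated data. Correlations used 100000 permutations.

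Named members were those called, the 15 with the highest mean, the heavy chains, and in each comparison up to 3 higher and 3 lower members that were not dim and whose pools did not overlap, with the smallest p. The members and the gene lists were chosen with earlier results of these data known. Alternatives were averaging all probe sets of a gene, a filter on dim genes, an intensity trend, array weights, only the arrays compared, Dbp or the actin 3' to 5' difference as a covariate, centring on the array median, and leaving out each pool. Fits of Asns, Eif4ebp1, Pck1 and Sox9 without each pool and with Dbp, member counts at an unadjusted p under the alternatives, medians by family and counts of the group with the lowest or highest mean were added after seeing the data.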

Additional observations from a re-analysis of the deposited data

How the results depend on the processing

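No paired analysis was possible because the labels number the pools 1 to 15 and no number is shared between groups. For members, the call on Slc7a2 in ON F2 against ON F1 ended with the mean of its probe sets (0.46, limma adjusted p = 0.131), with array weights (0.81, 0.0854), with only the arrays of both groups (0.85, 0.111) and with Dbp as a covariate (0.45, 0.277), so that 0 members were called. Slc38a2 was called beside it when dim genes were left out (limma adjusted p = 0.0439) or with an intensity trend (0.0482), which gave 2 members. With 1 pool left out, 0 to 2 members were called in that comparison and 0 in every other. No difference of a named member that was called changed sign. The cause of these shifts was not tested.

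Genes called in ON F2 against ON F1, 261 in the fit reported, numbered 101 with array weights, 7 with only the arrays compared and 3 with Dbp as a covariate. In ON F1 against control (4) they numbered 1 with the mean of probe sets, 1 with dim genes left out, 2 with array weights, 0 with only the arrays compared, 1 with Dbp and 0 with actin. In IUGR F1 against control (0) they numbered 1 with the mean of probe sets and 2 with array weights. In IUGR F2 against IUGR F1 (2) they numbered 5 with dim genes left out, 15 with array weights, 1 with only the arrays compared and 0 with actin. In ON F1 against IUGR F1 (2) they numbered 1 with a trend, 0 with only the arrays compared, 1 with Dbp and 0 with actin. In ON F2 against IUGR F2 (1) they numbered 0 with the mean of probe sets, 6 with dim genes left out, 4 with a trend, 11 with array weights, 0 with only the arrays compared, 4 with Dbp and 4 with centring. The interaction (2) gave 1 with the mean of probe sets and 1 with Dbp, and the F test (34) gave 53 with array weights, 8 with Dbp and 52 with centring.

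With 1 pool left out, called genes ranged from 19 to 313 in ON F2 against ON F1, 0 to 21 in ON F1 against control, 0 to 1 in IUGR F2 and in ON F2 against control, 0 to 4 in IUGR F2 against IUGR F1, 0 to 3 in ON F1 against IUGR F1, 0 to 7 in ON F2 against IUGR F2, 2 to 4 in the interaction and 7 to 40 in the F test, lowest without pool 6, 8 or 11. In ON F1 against control the highest number came without pool 9.

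The median difference of the 28 members that were not dim was, in IUGR F1 against control (-0.10), -0.038 with the mean of probe sets and -0.074 with array weights, and -0.117 to -0.059 with 1 pool left out. In ON F2 against ON F1 (0.03) it was 0.057 with the mean of probe sets, 0.093 with Dbp and 0.063 with centring, and 0.027 to 0.086 with 1 pool left out. In ON F1 against control (-0.14) it was -0.20 with centring, and -0.16 to -0.12 with 1 pool left out. In ON F2 against control (0.02) it was -0.010 with actin, and -0.060 to 0.039 with 1 pool left out. Leaving out 1 pool gave -0.08 to -0.02 in IUGR F2 against control, -0.051 to 0.038 in IUGR F2 against IUGR F1, -0.04 to 0.03 in ON F1 against IUGR F1, 0.04 to 0.09 in ON F2 against IUGR F2 and 0.05 to 0.10 in the interaction.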

Other observations

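Slc7a6os, which is no carrier by its symbol, was read between 5.75 and 5.97 in the 5 pools with Dbp above 9. In the other 10 pools it was read between 6.01 and 6.29. The share of all genes that divide this way was not counted. Slc6a8, the creatine carrier, was lowest in pool 7 at 5.26, where Slc1a2 was also lowest at 5.73; its other 14 pools lay at 5.79 or above. Both were singled out after their values were seen.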
